A study of Mus musculus with 15 samples.

Results

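Untreated leukemic bone marrow from mice with 2 forms of the human GFI1 gene, 36N and 36S, was compared across all genes that were well enough measured. Those were the genes with a normalized count of at least 10 in 3 or more of the 6 libraries, 13137 of the 18075 genes in the table. The 36S mice carried human GFI1 at both copies of the mouse Gfi1 locus (labelled GFI1 KI /KI), and the 36N mice carried the human 36N variant there (GFI1 36N /36N). Human GFI1 at the mouse locus is thus shared by both groups. In each, lineage-depleted marrow cells had received the MLL-AF9 oncogene with a GFP reporter by retrovirus, the GFP-positive cells were sorted and put into C57BL/6 mice irradiated with 7 and 3 Gy, and the leukemias were passed on through mice given 3 Gy. RNA came from total marrow of the quaternary recipients, 3 libraries a group (36S libraries 1 to 3 and 36N libraries 4 to 6). The age of the mice was not among the labels. Total marrow holds the host's remaining cells beside the leukemic ones, so fewer cells of a type and less RNA per cell cannot be told apart in any result below. The titles end in a number that runs from 1 to 3 in 36S and is 1 in every 36N library. Its meaning is not given. The sources used here do not say how many primary leukemias the mice of a group came from, so p-values measure the spread between these libraries only.

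GFI1 is a zinc finger protein that binds DNA and represses transcription by recruiting the histone demethylase LSD1 and its partner CoREST. In normal marrow it holds back monocyte genes in cells that become granulocytes, and it represses its own gene and that of its relative Gfi1b. In the 36N form a serine near the repressor domain is replaced by an asparagine. MLL-AF9 is a fusion of a histone methyltransferase with a partner from the elongation machinery, and it drives myeloid leukemia by keeping homeobox genes such as Hoxa9 and Meis1 on. Gfi1 itself was not analysed here, so the genotype labels were not checked against its level.

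Of the 13137 genes, 335 were higher in 36N (2.55%) and 264 lower (2.01%), together 599 or 4.56%, at an adjusted p under 0.05 in limma's moderated test. At least 2-fold apart were 182 of the higher and 181 of the lower genes. In all 599 the 3 values of a group lay on one side of the other group's, and over all genes tested this held for 26.9%. An unadjusted p under 0.05 was reached by 20.4% of genes. The median log2 fold change over all genes was -0.01. Of the members, 156 reached 10 in every library of 1 group and in none of the other. These had to differ to be tested, and 65 of them were called. At the edge of the filter, Cmtm8 was just inside, with a third-highest value of 10.003, and Olfr1555-ps1 just outside, with 9.9987.

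**Figure D1:**
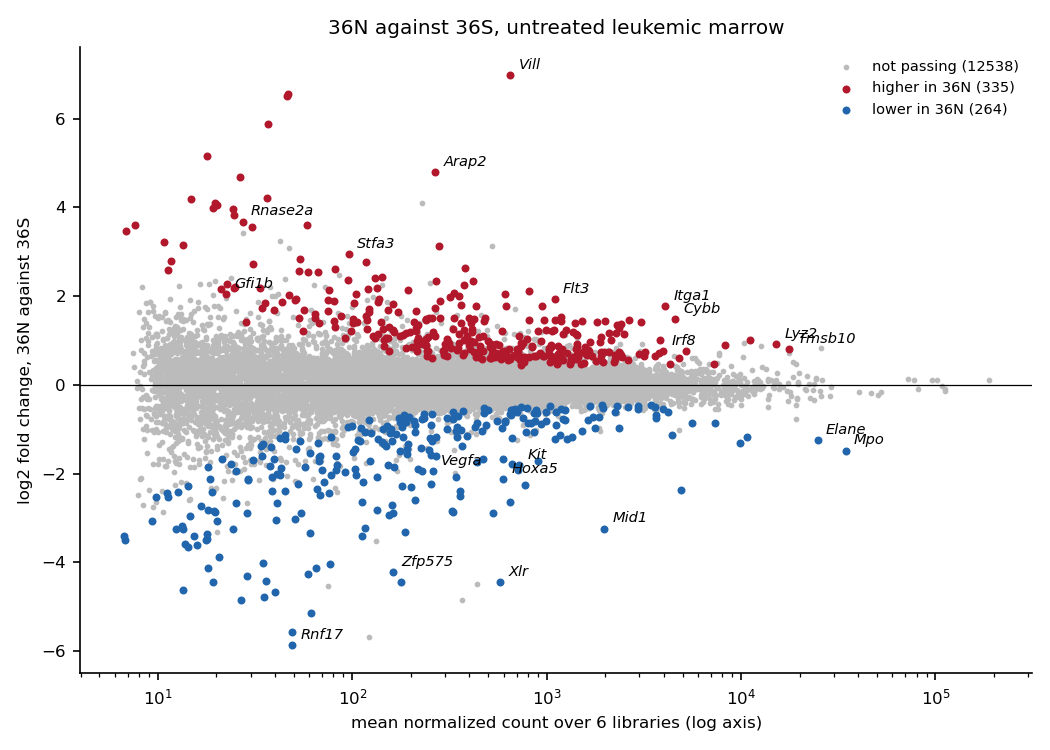
Log2 fold change of 36N against 36S (vertical axis) against the mean normalized count over the 6 libraries (horizontal log axis) for the 13137 genes tested. Red points are the 335 genes higher and blue points the 264 genes lower in 36N at an adjusted p under 0.05. The called genes named in the plot run from Gfi1b, with a 36S mean of 8.25, to Mpo, with a 36S mean of 51881.5.

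Some libraries stood apart. Totals of the normalized counts lay between 11265945 and 11929913. On the first principal component, which held 47.7% of the variance, the 36S libraries had scores from -50.7 to -21.2 and the 36N libraries from 25.7 to 45.9. 36S library 1 was high in many genes of late neutrophils, with S100a8 at 21822 against 2837 and 1365 in the other 36S libraries and Ltf at 5443 against 718 and 219. Of the list that holds Ltf, Chil3 (7064 against 21012 and 20539) and Hp (5182 against 5611 and 5297) were lowest there within 36S. 36N library 6 was high in red cell genes, whose sum was 2352 against 311 to 623 elsewhere. Leaving out 36S library 2 lowered the 599 calls to 218, and leaving out 36N library 5 lowered them to 294. On the first component 36S library 2 (-30.4) and 36N library 5 (30.6) lay between the other libraries of their group, so neither stood apart on it. In all 6 fits with 1 library left out, 192 of the 599 genes stayed past the threshold.

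Of the genes of the neutrophil primary granule, 5 were lower in 36N (50%, against 2.01% of all genes) and none higher. These granules are made in promyelocytes and carry proteases and myeloperoxidase. There were 10 listed members tested, all 10 fold changes were negative, and their median was -0.97. Elane, which encodes neutrophil elastase, stood at 46491, 33262 and 25815 normalized counts in 36S and at 15145, 14046 and 13892 in 36N (log2 fold change -1.25, SE 0.20, adjusted p = 0.0087). The 36N libraries were nearly alike while 36S spread, and library 1 was the highest. Mpo, the gene of myeloperoxidase, read 77508, 51635 and 26502 in 36S against 18759.8, 17540.4 and 14736 in 36N (log2 fold change -1.48, SE 0.33, adjusted p = 0.036). For Mpo the lowest 36S library, number 3, was still above every 36N library. Srgn, which encodes the proteoglycan serglycin that packs granule proteins, had 19646, 12799 and 10025 against 6959.5, 6242 and 3758 (log2 fold change -1.32, SE 0.28, adjusted p = 0.031). Ms4a3, a membrane protein gene of granulocyte and monocyte progenitors, had 1543, 1110.0 and 746 against 417, 288 and 192 (log2 fold change -1.93, SE 0.31, adjusted p = 0.0093). Cst7, the gene of the protease inhibitor cystatin F, fell by 0.90 on the log2 scale (adjusted p = 0.039). Other granule proteases did not pass: Prtn3 (proteinase 3) stood at 11326, 8430.1 and 6722 against 6275, 6171 and 5300.4 (adjusted p = 0.13), and Ctsg (cathepsin G) at 7889.6, 5985 and 5105 against 4172, 3653 and 1896 (adjusted p = 0.077). Without 36S library 1, the library rich in late neutrophil RNA, 3 members passed. Without 36S library 2, 36N library 5 or 36N library 6, 2 passed. In the fit without a trend of spread with expression, Elane, Mpo, Srgn, Ms4a3 and Cst7 did not pass.

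The promoters of Elane and Prtn3 are shown because these genes lie close together on chromosome 10 and Elane passed while Prtn3 did not. The bases are those just before the start site, 5′ to 3′ in the direction of the gene, from RefSeq (GRCm38.p6), at chr10:79886192-79886311, plus strand for Elane and chr10:79879547-79879666, plus strand for Prtn3. Capitals mark GAGGAA, the core letters bound by PU.1, a factor of all myeloid cells, searched on both strands.
Elane: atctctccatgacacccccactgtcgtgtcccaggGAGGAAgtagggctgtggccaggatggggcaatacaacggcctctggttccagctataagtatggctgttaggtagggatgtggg
Prtn3: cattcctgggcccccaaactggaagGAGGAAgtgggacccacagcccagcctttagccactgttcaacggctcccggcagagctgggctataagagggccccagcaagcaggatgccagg
Both windows hold the letters once. They were in 6 of 10 promoters of the granule list (60%, counted from 250 bases before to 50 after the start), against 28.3% of all 32851 promoters in the RefSeq set, 26.8% of the 12722 promoters of genes tested here, 33.7% of those of genes higher in 36N and 29.3% of those of genes lower. Spi1, which encodes PU.1, did not pass (3652, 3478 and 3923 in 36S and 3828, 3928 and 4087 in 36N, adjusted p = 0.59).

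Genes of later neutrophils did not follow the primary granule. Of 15 tested, 2 rose (13.3%, against 2.55% of all genes) and 0 fell, with a median of -0.07. Cybb, which encodes the catalytic subunit of the NADPH oxidase of phagocytes and is made by monocytes as well, rose from 2552, 2189 and 2499.9 to 5893, 6479 and 7889 (log2 fold change 1.48, SE 0.13, adjusted p = 7.5e-04). The lowest 36N library was above every 36S library by more than the spread within either group, and the call held without any 1 library. Mmp8, neutrophil collagenase, had 1184, 750.4 and 1136 against 1718, 1959 and 1802 (log2 fold change 0.86, SE 0.17, adjusted p = 0.025), and its call was lost without 36S library 2 or any 36N library. The classic late genes S100a8 and S100a9 had log2 fold changes of 0.00 and -0.16, with 36S library 1 the highest of all libraries for both. The summed level of the late neutrophil list ran from 33877 to 46493 in 36S and from 30775 to 37862 in 36N, so the groups overlapped. A large part of that sum was Chil3, at 7064, 21012 and 20539 in 36S and 10279, 17666 and 5953 in 36N. Within 36S it ran opposite to Ltf, so the sum is not a level of late neutrophils.

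Cybb is an X-linked gene whose promoter holds several elements that the search could find. The 180 bases before its start, at chrX:9469325-9469504, minus strand, have in capitals, on either strand, CCAAT and the letters of the interferon-stimulated response element, GAAA and GAAA with 2 bases between, in 3 places.
Cybb: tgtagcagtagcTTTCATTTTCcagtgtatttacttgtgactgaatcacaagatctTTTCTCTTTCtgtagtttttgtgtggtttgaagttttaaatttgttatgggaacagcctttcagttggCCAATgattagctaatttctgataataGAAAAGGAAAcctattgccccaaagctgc
The interferon element was in 3.44% of all promoters, in 3.32% of those of genes tested, in 5.42% of those of genes higher in 36N and in 6.83% of those of genes lower. The core of the GFI1 site, AAATC and GC with 3 bases between, was in 2.82% of all promoters, 2.52% of those of genes tested, 3.61% of those of higher genes and 3.21% of those of lower genes.

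All stefin genes tested in 1 cluster rose. Stefins are small inhibitors of cysteine proteases inside the cell, and in the mouse a cluster of near-identical copies lies on chromosome 16 (mm10, 36156811 to 36455392). All 7 genes tested there were higher in 36N: Stfa2l1, Cstdc4, Csta2, Stfa1, Cstdc5, Stfa2 and Stfa3. Stfa2 had 24.7, 37.4 and 22.9 in 36S and 155, 147 and 315 in 36N (log2 fold change 2.76, SE 0.34, adjusted p = 0.0034), Stfa2l1 108, 142 and 123 against 607, 395 and 885 (log2 fold change 2.26, SE 0.27, adjusted p = 0.0029), and Cstdc4 70.7, 107 and 77.1 against 417, 295 and 640.4 (log2 fold change 2.34, SE 0.28, adjusted p = 0.0033). In each of these 36N library 6 was the highest and every 36N library stood above every 36S library. Stfa1, the copy with the highest level, had 699, 984 and 636 against 2245, 1599 and 2201 (log2 fold change 1.39, SE 0.19, adjusted p = 0.005). Stfa3 had 7.84, 26.8 and 31.5 against 166, 81.9 and 262 (log2 fold change 2.94, SE 0.55, adjusted p = 0.02), and its call was lost without 36N library 4 or 6. Because the copies are so alike, the split of reads between them is uncertain and the 7 calls are not 7 separate measurements. Of the S100 genes on the same list, S100a6 rose from 274, 240.1 and 333 to 557, 449 and 830.4 (log2 fold change 1.08, SE 0.23, adjusted p = 0.03) and S100a10 by 0.95 (adjusted p = 0.044). Both of these calls depended on single libraries. Over the list of 12 S100 and stefin genes, 7 rose (58.3%, against 2.55% of all genes) and 0 fell, with a median of 1.01.

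The likeness of the copies can be seen in their promoters, of which 3 are printed here, each of 120 bases before the start from RefSeq (GRCm38.p6): Stfa2 at chr16:36408364-36408483, minus strand, Stfa2l1 at chr16:36156691-36156810, plus strand and Cstdc4 at chr16:36184092-36184211, plus strand. Capitals mark GAGGAA, which appears here on the other strand as TTCCTC.
Stfa2: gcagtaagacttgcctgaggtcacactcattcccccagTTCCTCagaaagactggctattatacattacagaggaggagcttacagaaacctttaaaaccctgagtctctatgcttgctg
Stfa2l1: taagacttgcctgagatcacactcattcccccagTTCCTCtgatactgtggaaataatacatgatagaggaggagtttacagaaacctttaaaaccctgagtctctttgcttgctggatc
Cstdc4: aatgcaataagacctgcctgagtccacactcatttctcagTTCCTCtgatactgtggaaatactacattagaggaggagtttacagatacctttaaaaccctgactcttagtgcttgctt
At the best offset without gaps, Stfa2 and Stfa2l1 were identical at 103 of 116 positions (88.8%), while Cstdc4 matched Stfa2l1 at 61 of 116. The letters were in 8 of 10 promoters of the S100 and stefin list (80%).

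Monocyte and macrophage genes were more often higher than lower. Of 23 tested, 7 rose (30.4%, against 2.55% of all genes), 1 fell (4.35%, against 2.01%) and 15 did not pass. In the list 16 fold changes were positive and 7 negative, with a median of 0.54. The summed level of the list was 84086 to 120758 in 36S and 134130 to 144076 in 36N. Lyz2, which encodes lysozyme, rose from 10509, 9517 and 11388 to 16074, 19509 and 24047 (log2 fold change 0.91, SE 0.16, adjusted p = 0.014). Mpeg1, whose product perforin-2 kills engulfed bacteria, had 4044, 6026 and 7830.2 against 10127, 10361 and 11481 (log2 fold change 0.89, SE 0.21, adjusted p = 0.047). Ace, the angiotensin-converting enzyme that macrophages also make, had 43.8, 50.7 and 29.2 against 173, 254 and 237 (log2 fold change 2.41, SE 0.27, adjusted p = 0.002), the lowest p in this list. The others that rose were Klf4, a transcription factor that promotes monocyte fate (1.23), the fractalkine receptor Cx3cr1 (1.47), the adhesion molecule Vcam1 (1.47) and Pla2g7, an enzyme that breaks down platelet-activating factor (3.61). Fcgr4, a receptor for IgG, fell from 229, 195 and 202 to 90.4, 147 and 84.3 (log2 fold change -0.99, SE 0.23, adjusted p = 0.046), a call lost in 5 of the 6 fits with a library left out. For 3 other listed genes every 36N library was below every 36S library without the gene passing: the lipopolysaccharide co-receptor Cd14 had 53.7, 54.3 and 60.5 against 27.9, 33.3 and 40.8 (adjusted p = 0.17), the macrophage glycoprotein gene Cd68 had 4219, 4434 and 4987 against 3451, 3835 and 3721 (adjusted p = 0.15), and the lipid carrier gene Apoe had 528, 693 and 1191 against 466, 391 and 473 (adjusted p = 0.13). F13a1, Ctsb, Ctss and Adgre1 did not pass either, and in each of them every 36N library was above every 36S library. F13a1 had 12213, 16252 and 17606 in 36S against 20719, 21860 and 22610 in 36N. Called or not, 15 of the 23 genes tested had groups that did not overlap, beside 26.9% of all genes. Of the defining monocyte markers, 3 did not pass: Csf1r, the receptor for the growth factor M-CSF, had 2444, 2851 and 4228 against 3905, 3766 and 5244 (adjusted p = 0.25), Ccr2 a log2 fold change of 0.54 (adjusted p = 0.16) and Ly6c2 one of -0.14 (adjusted p = 0.58). Of the 7 that rose, 6 passed without 36S library 1, 2 without 36S library 2 and 1 without 36N library 5. Ace was the 1 that passed in every fit with a library left out.

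**Figure D2:**
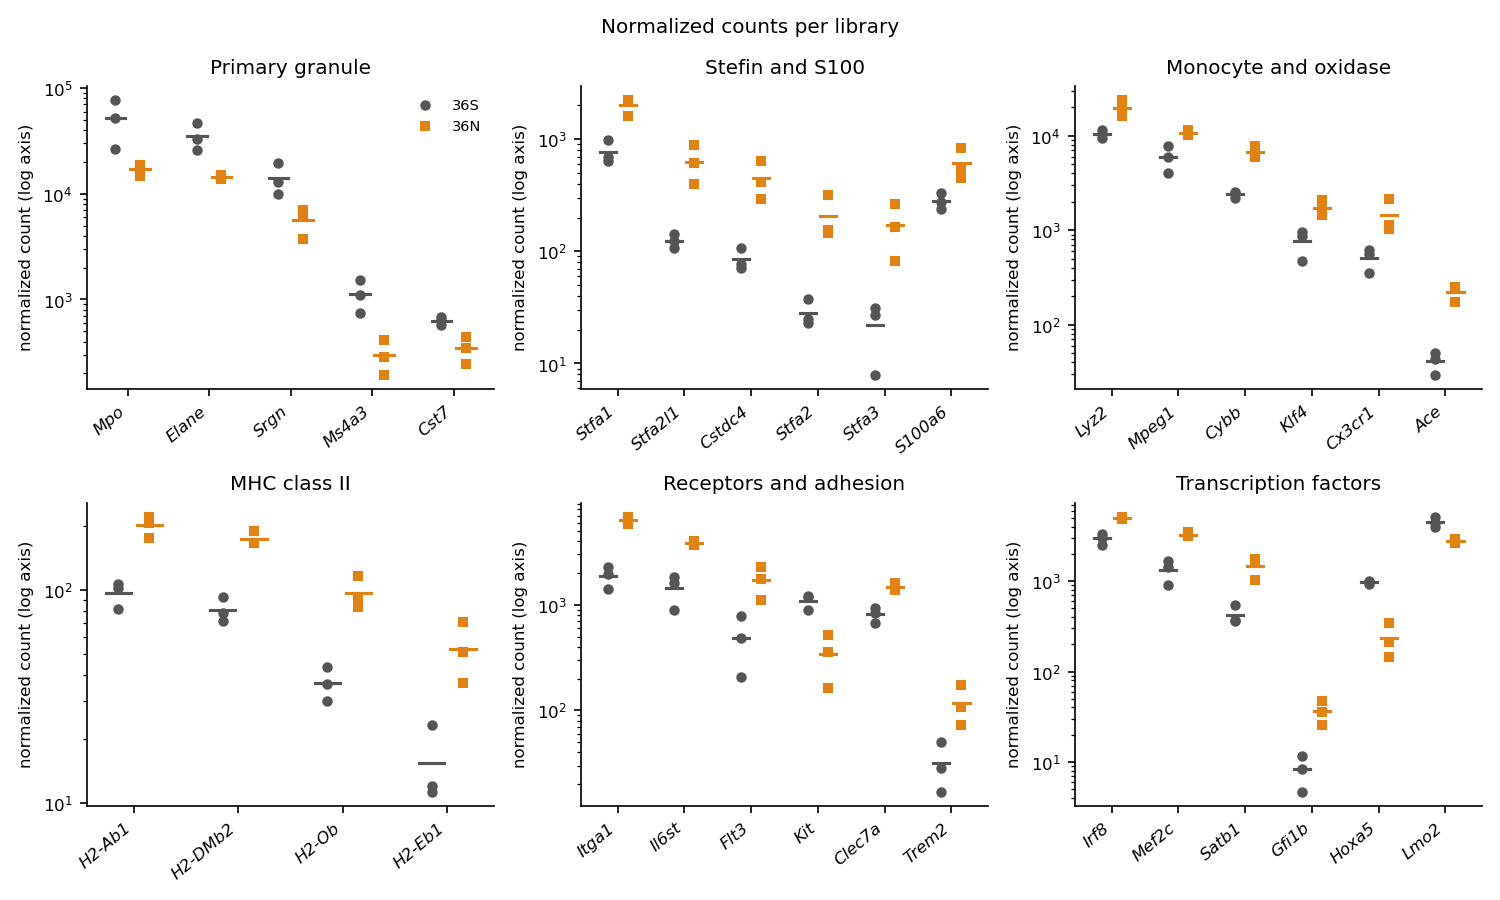
Normalized counts on log axes for genes of 6 groups in the 36S libraries (grey circles) and the 36N libraries (orange squares), with 1 point per library and a bar at each group's mean. In every gene drawn the 2 groups do not overlap.

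Receptors of innate immunity were also more often called higher than lower. Of 27 Fc and paired immune receptors, 7 rose (25.9%, against 2.55% of all genes) and 1 fell (Fcgr4, 3.70%, against 2.01%), with a median of 0.67. Trem2, a lipid-sensing receptor of macrophages, had 16.8, 28.3 and 50.1 against 108, 72.4 and 175 (log2 fold change 1.91, SE 0.44, adjusted p = 0.042). Sirpb1c (1.89), Sirpb1a (1.87) and Sirpb1b (1.54) are near-identical activating receptors in a cluster on chromosome 3, so their reads may be shared, and the inhibitory receptor Sirpa, at 3336, 3744 and 3737 against 5018, 4615 and 5313, rose by 0.47. The inhibitory receptor genes Lilrb4a (1.07) and Lilr4b (0.98), side by side on chromosome 10, rose too. None of these 8 calls held in all fits with a library left out, and 0 of the 7 rises passed without 36S library 2. Of 26 Toll-like and pattern receptors, 3 rose (11.5%, against 2.55% of all genes) and 0 fell: the scavenger receptor Msr1 (41.0, 54.7 and 34.97 against 186, 175 and 119, log2 fold change 1.85, SE 0.27, adjusted p = 0.0061), the inflammasome sensor Nlrp3 (1.49) and Clec7a, the receptor for fungal glucan (673, 832 and 936 against 1437, 1395 and 1599, log2 fold change 0.87, SE 0.14, adjusted p = 0.009). Msr1 and Clec7a stayed past the threshold without any 1 library. Among 17 chemoattractant receptors, Fpr2, which senses formylated bacterial peptides, rose from 85.7, 65.6 and 61.8 to 179, 308 and 216 (log2 fold change 1.69, SE 0.24, adjusted p = 0.0063), Cx3cr1 and Ccr1 (0.62) rose and 0 fell. The rises were 17.6% of that list, against 2.55% of all genes. The call of Nlrp3 was lost in 4 of the 6 fits with a library left out, and of the 3 chemoattractant receptors 1 passed without 36S library 2 or 36N library 5. Among 14 chemokines and cytokines, only Ccl6 passed, at 277, 175 and 218 against 479, 597 and 797 (log2 fold change 1.47, SE 0.22, adjusted p = 0.0074). Since 4.56% of all genes were called, 1 call among 14 is no result about that list.

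Of the MHC class II genes 4 were called higher. Class II molecules show peptides to helper T cells and are made by dendritic cells, B cells and activated macrophages. With 10 class II genes tested, 4 rose (40%, against 2.55% of all genes) and 0 fell. All 10 fold changes were positive and the median was 0.81. H2-Ab1, the beta chain of the A molecule, had 102, 81.98 and 107 against 208, 175 and 222 (log2 fold change 1.05, SE 0.19, adjusted p = 0.017). H2-Eb1, the beta chain of the E molecule, had 11.97, 11.2 and 23.2 against 51.4, 36.6 and 71.2 (log2 fold change 1.74, SE 0.40, adjusted p = 0.043). H2-DMb2 and H2-Ob, which encode chains of the peptide-loading factors DM and DO, had 78.4, 71.8 and 92.7 against 168, 167 and 189 (1.10) and 36.1, 30.3 and 43.5 against 117, 92.8 and 83.01 (1.39). The invariant chain gene Cd74 (586, 425 and 704 against 665, 566 and 1111, adjusted p = 0.39) and the master regulator Ciita (16.9, 14.6 and 39.7 against 38.01, 29.7 and 26.1, adjusted p = 0.53) did not pass, and in both genes the groups overlapped. Without 36S library 2 none of the 4 calls held, and without 36N library 4 or 5 only 1 did. Markers of cells that make class II had these values. The summed level of the dendritic cell list ran from 8622 to 10113 in 36S and from 10570 to 12721 in 36N. That sum includes Flt3, at 209 to 777 in 36S and 1106 to 2272 in 36N. Most of the sum was Cst3 (5033 to 5271 in 36S, 4442 to 5247 in 36N) and Tcf4 (2575 to 3665 and 3220 to 5759), which both overlapped. Of the 10 genes tested, 2 had groups that did not overlap, Flt3 and Itgax, so the sum is not a level of dendritic cells. Flt3 was the 1 call of 10 genes, no result about the list beside 4.56% of all genes. Itgax was lower in every 36N library without passing (119, 52.1 and 86.8 against 39.9, 40.9 and 26.5). Clec9a was at 3.58 or less in every library, and Siglech (47.9 or less) and Xcr1 (74.6 or less) overlapped between the groups. The B cell list overlapped, from 11906 to 18348 in 36S and from 10167 to 15475 in 36N, with 0 of 21 called. The part of these cells in the result was not tested. Of 16 class I genes, 0 passed in limma and 1 had an unadjusted p under 0.05. Of 34 interferon response genes, 0 passed and 7 had an unadjusted p under 0.05, beside 20.4% of all genes. The lowest p belonged to Mx1 (log2 fold change 1.39, adjusted p = 0.054), and Oas1g had a log2 fold change of -1.71 (adjusted p = 0.063). In the interferon list 17 fold changes were positive and 17 negative. Since 4.56% of all genes were called, 0 of 16 and 0 of 34 are no result about these lists.

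Class II promoters carry a box with CCAAT that binds the factor NF-Y, and 3 of those that rose are shown for the 120 bases before the start with CCAAT, or ATTGG where it lies on the other strand, in capitals (RefSeq, GRCm38.p6): H2-Eb1 at chr17:34305747-34305866, plus strand, H2-DMb2 at chr17:34145129-34145248, plus strand and H2-Ob at chr17:34238785-34238904, plus strand.
H2-Eb1: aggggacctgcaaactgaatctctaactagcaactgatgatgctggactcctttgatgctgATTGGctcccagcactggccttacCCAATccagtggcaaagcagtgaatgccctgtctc
H2-DMb2: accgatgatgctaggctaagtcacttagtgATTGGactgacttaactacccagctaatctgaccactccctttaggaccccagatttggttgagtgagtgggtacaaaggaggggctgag
H2-Ob: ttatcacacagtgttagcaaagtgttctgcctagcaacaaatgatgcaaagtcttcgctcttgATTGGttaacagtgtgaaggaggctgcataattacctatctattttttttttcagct
H2-Eb1 has the letters in 2 places and the other two in 1. They were in 7 of 8 class II promoters (87.5%), in 37.4% of all promoters, in 38.4% of those of genes tested, in 37.7% of those of genes higher in 36N and in 40.6% of those of genes lower.

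Of 22 integrins and adhesion genes, 5 rose (22.7%, against 2.55% of all genes) and 0 fell. Itga1, the collagen-binding integrin alpha chain, stood at 1400.0, 1940.4 and 2275 in 36S and 6156, 5869 and 6823 in 36N (log2 fold change 1.77, SE 0.17, adjusted p = 0.0011). Itgb7, the integrin chain that guides cells to the gut, had 445, 561 and 873 against 1637, 1544 and 2049 (log2 fold change 1.52, SE 0.23, adjusted p = 0.0071), and Itgal, the alpha chain of LFA-1, had 2219.6, 2262 and 2303 against 3536, 3544 and 3965 (log2 fold change 0.70, SE 0.10, adjusted p = 0.0055). Vcam1 (1.47) and Jaml (2.18), a junction molecule of leukocytes, completed the list. Itga1, Itgb7 and Itgal passed in each fit with 1 library left out.

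Growth factor receptors moved in both directions. Il6st, which encodes the signalling chain gp130 of the interleukin 6 family, rose from 893, 1612 and 1837 to 3789, 3669 and 4032 (log2 fold change 1.47, SE 0.23, adjusted p = 0.0086), and 36S library 1 was the lowest. Il10ra (0.89) and Il17ra (0.57) rose and Ifngr1, the interferon gamma receptor, fell from 3914, 4237 and 4402 to 3119, 3228 and 2612 (log2 fold change -0.49, SE 0.12, adjusted p = 0.046). Those 4 were the calls among 24 receptors, 12.5% higher and 4.17% lower, against 2.55% and 2.01% of all genes. Of the 4, Il6st alone held in every fit with a library left out. The receptor tyrosine kinases of progenitors parted. Kit, the stem cell factor receptor of progenitors and mast cells, fell from 1217, 1183 and 892 to 513, 355 and 161 (log2 fold change -1.81, SE 0.35, adjusted p = 0.023). Flt3, the receptor of lymphoid-primed and dendritic progenitors, rose from 209, 482 and 777 to 1753, 2272 and 1106 (log2 fold change 1.94, SE 0.43, adjusted p = 0.037). Within 36S the library with most Flt3, number 3, had the least Kit, while within 36N library 6 had the least of both. The call of Kit was lost without 36S library 1 or 2 or 36N library 5, and that of Flt3 without 36S library 2 or 36N library 4 or 5. Cpa3, a defining mast cell gene, stood at 314, 142 and 190 in 36S and at 300, 19.7 and 40.6 in 36N. The summed mast cell list ran from 2115 to 3019 in 36S and from 1101 to 1820 in 36N, with 1 of 8 members called (Kit). Beside 4.56% of all genes, 1 call in a list this short is no result about it.

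Among transcription factors, 3 listed targets of GFI1 rose. Gfi1b, the paralogue that GFI1 represses, was low but higher in 36N, at 11.7, 4.62 and 8.42 against 47.6, 25.8 and 35.4 (log2 fold change 2.05, SE 0.45, adjusted p = 0.037). Its call held only without 36S library 1. Of 18 genes listed as repressed by GFI1, 3 rose (Gfi1b, Irf8 and Id2, 16.7%, against 2.55% of all genes) and 0 fell, with a median of 0.06. Irf8, the factor that commits progenitors to monocytes and dendritic cells (chromosome 8, 120736358 to 120756694, mm10), had 2538, 3334 and 3022 against 5004, 5109 and 4915 (log2 fold change 0.77, SE 0.12, adjusted p = 0.0084), with the 36N libraries nearly alike. Id2, an inhibitor of helix-loop-helix factors, had 265, 265 and 371 against 576, 571 and 769.7 (log2 fold change 1.09, SE 0.18, adjusted p = 0.011). Without 36S library 2 the call of Id2 was lost and 1 of the 3 rises passed. In the LSD1-CoREST list of 18 genes, 2 rose (11.1%, against 2.55% of all genes), Gfi1b and the reader protein gene Phf21a (0.67). Phf21a lost its call in 4 of the 6 fits with a library left out, and neither of the 2 passed without 36S library 2, 36N library 5 or 36N library 6. Kdm1a, the gene of LSD1 itself, did not pass (0.36, adjusted p = 0.28). Of 40 haematopoietic factors 6 rose (15%, against 2.55% of all genes) and 1 fell (2.5%, against 2.01%). Satb1, a chromatin organizer, rose from 544, 365 and 368 to 1753, 1640.5 and 1035 (log2 fold change 1.78, SE 0.22, adjusted p = 0.0038), and Bcl6, a transcriptional repressor, from 275, 284 and 252 to 455, 519 and 652 (log2 fold change 0.99, SE 0.16, adjusted p = 0.0092). Gfi1b, Id2, Klf4 and the retinoic acid receptor Rara (1.22) were the others that rose, and 3 of the list rose without 36S library 2, 36N library 5 or 36N library 6. Lmo2, a bridge of the stem cell complex, fell from 5157, 4348 and 3963 to 2621, 2846 and 2951 (log2 fold change -0.67, SE 0.12, adjusted p = 0.017), a call lost without 36S library 2 or 36N library 4 or 5. None of 15 C/EBP and PU.1 family genes passed in limma and 4 had an unadjusted p under 0.05, beside 20.4% of all genes. Cebpa was at -0.24 (adjusted p = 0.3). Irf8, Id2, Rara, Klf4 and Lmo2 did not pass in the fit without the trend.

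Genes that MLL fusions keep on were called in both directions. Of 21 tested, 3 rose (14.3%, against 2.55% of all genes) and 3 fell (14.3%, against 2.01%), with a median of -0.06. Bcl2, Flt3 and Mef2c were those that rose, and Lmo2 and Hoxa5 were 2 of those that fell. Six4, a homeobox gene that is not on that list, fell from 574, 593 and 553 to 58.9, 116 and 69.96 (log2 fold change -2.86, SE 0.24, adjusted p = 6.4e-04), and 36N library 5 was the highest of its group. Hoxa5 fell from 934, 995 and 966 to 213, 342 and 144 (log2 fold change -2.13, SE 0.26, adjusted p = 0.0034), the only call among 9 tested genes of the HoxA cluster, where 7 of 9 fold changes were negative. Beside 4.56% of all genes, 1 call among 9 is no result about the cluster. Hoxa9 had 1761, 1879 and 1582 against 2236, 2331 and 1039.7 (adjusted p = 0.98) and Meis1 1009.9, 1298 and 1378 against 1083, 1503 and 1518 (adjusted p = 0.64). 36N library 6 held less Hoxa9 than any other library and the other 36N libraries more than any 36S library. Hoxb4, a self-renewal gene of another cluster, had 62.6, 59.4 and 71.5 against 5.62, 0 and 8.73 (log2 fold change -4.03, SE 0.76, adjusted p = 0.021). Mef2c rose from 907, 1415 and 1683 to 3449, 3229 and 3144 (log2 fold change 1.34, SE 0.20, adjusted p = 0.0071) and the survival gene Bcl2 from 1039.5, 1022 and 1036 to 1974, 1832 and 1621 (log2 fold change 0.80, SE 0.11, adjusted p = 0.005). Six4, Hoxa5, Mef2c and Bcl2 kept their calls whichever library was left out. The call of Hoxb4 was lost without any one of the 36S libraries. Of 21 genes of the MLL chromatin complex, 0 passed in limma and 4 had an unadjusted p under 0.05, beside 20.4% of all genes.

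The largest rises started from low levels in 36S. Vill, which encodes villin-like protein, stood at 54.5, 6.82 and 1.36 in 36S and 1509, 1196 and 1118 in 36N (log2 fold change 6.97, SE 0.90, adjusted p = 0.004). Its neighbour on chromosome 9, Plcd1, was called higher too, a call lost in each of the 6 fits with a library left out. Arap2, a regulator of small GTPases, had 27.9, 8.6 and 19.02 against 525, 712 and 309 (log2 fold change 4.79, SE 0.43, adjusted p = 7.8e-04), and Rnase2a, an eosinophil-type ribonuclease, 3.31, 3.72 and 1.94 against 54.4, 69.2 and 31.4 (log2 fold change 3.68, SE 0.47, adjusted p = 0.0038). The defining eosinophil gene Epx was at 0 in 3 of the 6 libraries and at 7.64 or less in the others. Rnase4 (39.3, 37.9 and 43.02 against 164, 159.6 and 187) and Rnase6 (96.9, 151 and 172 against 410.5, 498 and 805) lie beside Rnase2a on chromosome 14 (51091077 to 51256112) and were higher, while Ang between them was not called (adjusted p = 0.84). Col19a1, a collagen gene, had the lowest p of all rises, 238, 228 and 242 against 944, 1072 and 927 (log2 fold change 2.05, SE 0.12, adjusted p = 1.8e-04). Dpp4, the surface peptidase CD26, had 113, 124 and 185 against 766, 723 and 603 (log2 fold change 2.33, SE 0.20, adjusted p = 7.0e-04), and Tiam1, an activator of RAC, 1028, 1025 and 1178 against 3426, 2980.1 and 2394 (log2 fold change 1.43, SE 0.14, adjusted p = 0.0013). Vill, Arap2, Rnase2a, Col19a1, Dpp4 and Tiam1 passed in all fits with a library left out.

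Large decreases included genes of the germline and of the X chromosome. Rnf17, a germ cell gene of the Tudor family, had 108, 99.2 and 84.7 in 36S and 0, 0 and 3.73 in 36N (log2 fold change -5.86, SE 0.64, adjusted p = 0.002). Xlr, a lymphoid-regulated X-linked gene, had 1226, 1003 and 995 against 45.3, 169 and 14.1 (log2 fold change -4.45, SE 0.68, adjusted p = 0.008), and Scml2, an X-linked Polycomb protein gene of germ cells, 87.2, 47.2 and 68.5 against 0.716, 0 and 7.06 (log2 fold change -4.79, SE 0.74, adjusted p = 0.008). Mid1, an X-linked ubiquitin ligase, fell from 3345, 3845 and 3473 to 341, 276 and 557 (log2 fold change -3.24, SE 0.22, adjusted p = 3.7e-04), and Zxdb, an X-linked zinc finger gene, from 1085, 1053 and 1195 to 208, 177 and 153 (log2 fold change -2.64, SE 0.15, adjusted p = 1.8e-04), the lowest p of all decreases. Fam3b, a secreted protein gene, had 67.5, 52.2 and 47.4 against 2.54, 2.23 and 0.932, Zfp575, a zinc finger gene, 207, 299 and 416 against 14.2, 18.3 and 12.7 and Dip2c 161, 136 and 138 against 7.66, 6.45 and 9.72. The calls of these 8 genes held without any 1 library. F7, coagulation factor VII, fell from 303, 320.0 and 391 to 32.7, 46.03 and 23.5 (log2 fold change -3.32, SE 0.26, adjusted p = 5.8e-04), and F10 beside it on chromosome 8 from 1511, 1505 and 1574 to 756, 807 and 1163 (log2 fold change -0.78, SE 0.16, adjusted p = 0.028), a call lost in 5 of the 6 fits with a library left out. Of 7 listed germline and X-linked testis genes tested, 5 fell and 0 rose. That list was written with earlier results of these data in view, so its count is no evidence of its direction. For genes listed near 0 in 36N the fitted size depends on the pseudocount: Rnf17 was at -5.86 with 1, -6.58 with 0.5 and -4.08 with 5.

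By chromosome, the X had 20 genes lower and 7 higher of 384 tested, which is 5.21% lower against 2.01% over all genes. Chromosome 14 had 22 lower of 452 (4.87%), among them 5 of the 10 tested genes from 50789248 to 50965237 (Ccnb1ip1, Tep1, Pnp, Gm49342 and Pnp2). Pnp, purine nucleoside phosphorylase, fell from 675, 587 and 614 to 255, 308 and 359 (log2 fold change -1.03, SE 0.15, adjusted p = 0.007), and Ccnb1ip1, whose protein turns over cyclin B, from 19305, 13992 and 11391 to 6835, 6863 and 5788 (log2 fold change -1.17, SE 0.18, adjusted p = 0.0086). In 51 places 2 or more called genes less than 200 kb apart had the same direction with no call of the other direction between them, 121 of the 599 genes in all, and 11 of these groups held 3 or more. Tested genes that were not called lay within 27 of the 51 places, and 24 held called genes only. The Y chromosome had 2 lower calls, Mid1-ps1 and Gm21742. Mid1-ps1 is annotated as a pseudogene of Mid1, and its reads cannot be told apart with certainty from those of Mid1. No set or enrichment test was made of these counts.

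**Figure D3:**
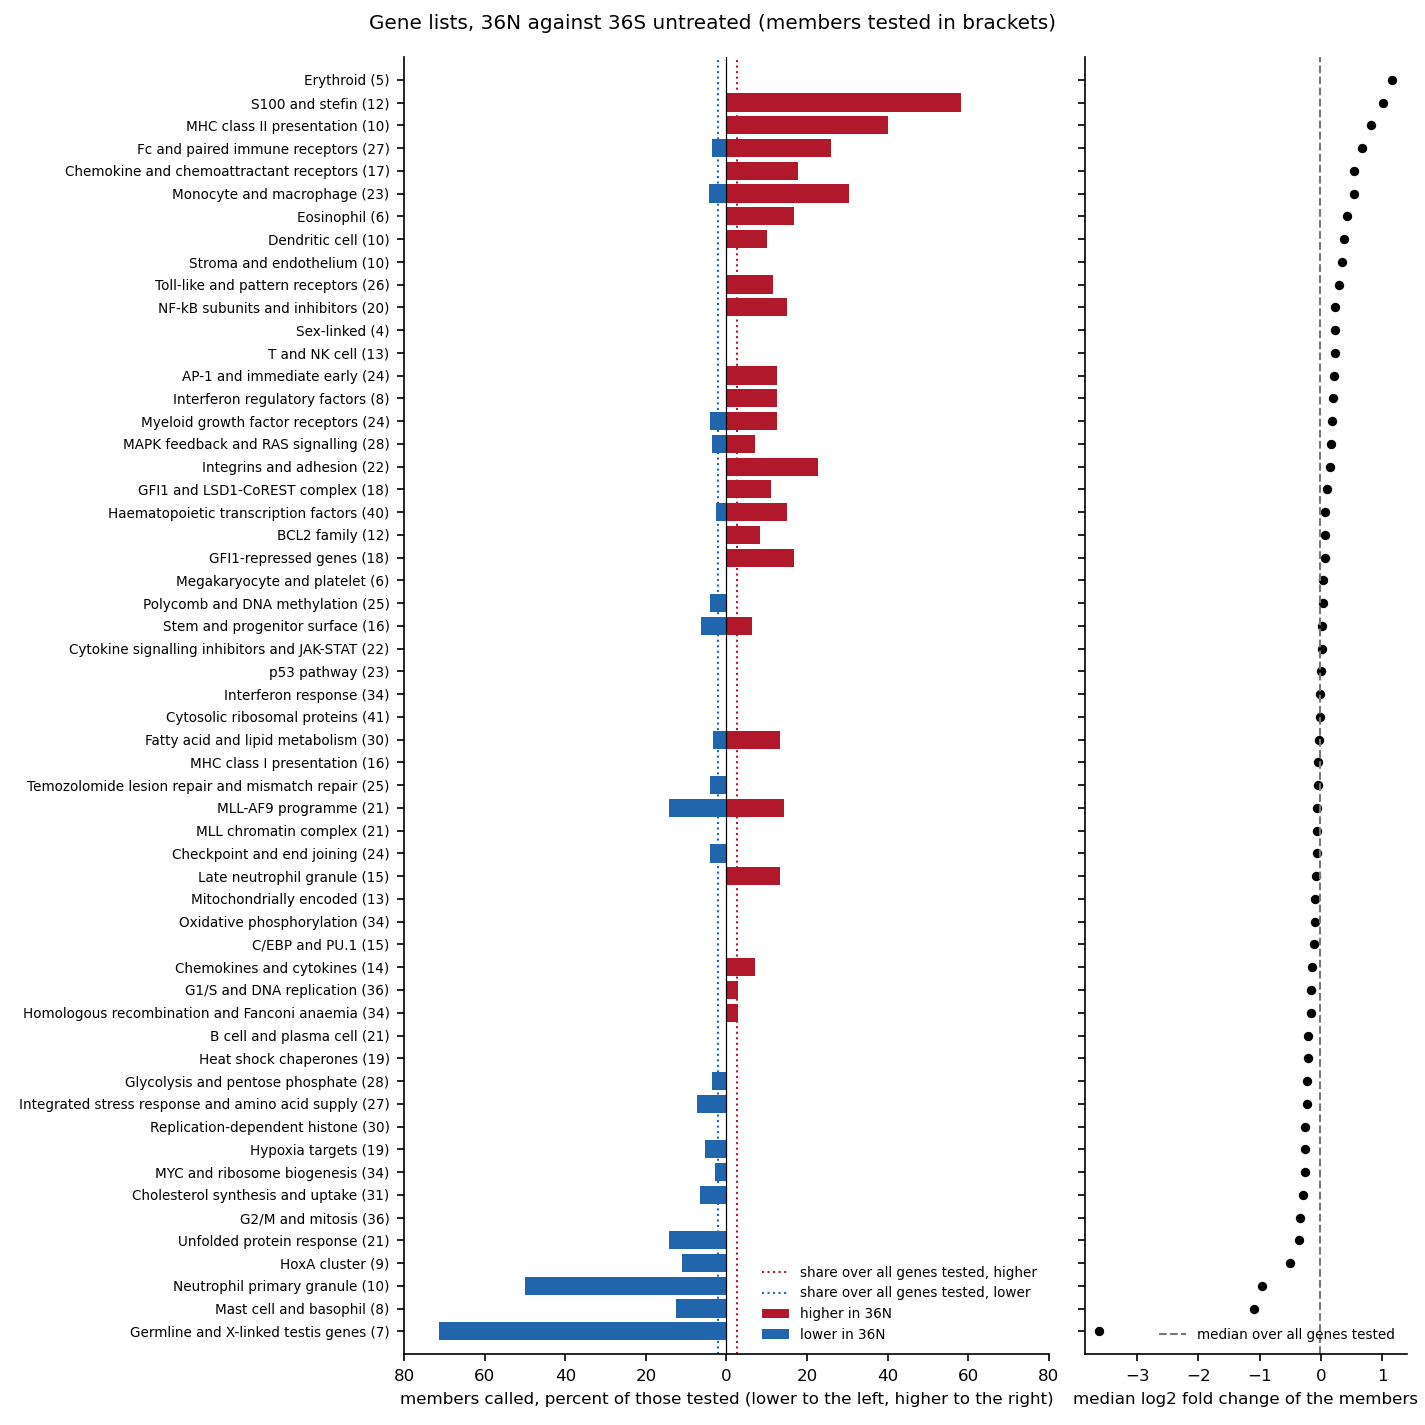
Left, the percent of tested members of each gene list called higher (red, to the right) or lower (blue, to the left) in 36N, with dotted lines at 2.55% and 2.01%, the shares over all genes. Right, the median log2 fold change of each list's tested members, with a dashed line at the median of all genes, -0.01. The germline list (-3.62), the mast cell list (-1.09) and the primary granule list (-0.97) have the lowest medians, and the erythroid (1.17), S100 and stefin (1.01) and class II (0.81) lists the highest. The erythroid median is that of 5 tested genes, of which 0 were called, and is the value of Ermap, whose log2 fold change ran from 0.37 to 1.60 with 1 library left out.

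In metabolism and stress pathways the lists had medians below 0. Called lower were 14.3% of unfolded protein response genes, 7.41% of integrated stress response, 6.45% of cholesterol, 5.26% of hypoxia and 3.57% of glycolysis genes, each from 3 genes or fewer, against 2.01% of all genes. Since 4.56% of all genes were called, the 2 of 27 stress response, 2 of 31 cholesterol, 1 of 19 hypoxia and 1 of 28 glycolysis genes are no result about those lists. Vegfa, a growth factor induced by low oxygen and stress, fell from 407, 493 and 338 to 87.01, 132 and 99.7 (log2 fold change -1.95, SE 0.21, adjusted p = 0.002), the only call among 19 hypoxia targets. Asns, asparagine synthetase, fell from 319, 275 and 173 to 79.7, 87.5 and 44.4 (log2 fold change -1.86, SE 0.31, adjusted p = 0.011), and Atf5, a factor of the same integrated stress response, from 522, 500.2 and 668 to 276, 291 and 296 (log2 fold change -0.96, SE 0.15, adjusted p = 0.0078). Of 27 genes in that list 2 passed, these, and 20 had negative fold changes, and the call of Asns was lost without 36S library 2. Of 21 unfolded protein response genes 15 had an unadjusted p under 0.05, beside 20.4% of all genes, and the median was -0.35. Called lower were 3 of the 21, Sdf2l1 (-0.89), Herpud1 (-0.61) and Hyou1 (-0.47). None of these 3 calls held in every fit with a library left out. Of 31 cholesterol genes 2 fell (Idi1 -0.99, Stard4 -0.90) and 26 had negative fold changes. Neither call held without 36S library 2. Ptgs1, cyclooxygenase 1, fell from 980.2, 1019 and 1064 to 308, 355 and 232 (log2 fold change -1.79, SE 0.16, adjusted p = 8.0e-04), while Hpgd, which degrades prostaglandins, rose from 6348, 7550.1 and 8074 to 15904, 17352 and 11541 (log2 fold change 1.01, SE 0.17, adjusted p = 0.011), a call lost without 36S library 2 or 36N library 5. Lpl, lipoprotein lipase, rose from 966, 1459 and 1656 to 3667, 3909 and 2751 (log2 fold change 1.36, SE 0.21, adjusted p = 0.0077). Cpt1a (1.11), which brings fatty acids into mitochondria, the lipid droplet coat Plin2 (0.86) and Elovl7 (1.91) rose too, which with Lpl makes 4 rises of 30 lipid genes (13.3%, against 2.55% of all genes), beside 1 fall (Ptgs1). Only 1 rise passed without 36S library 2, where Cpt1a and Plin2 lost their calls, and Elovl7 lost its call in each of the 6 fits with a library left out. Lpl and Ptgs1 kept theirs. Of 28 glycolysis genes only Hk1, hexokinase 1, passed, from 2372, 2221 and 2350.3 to 1269, 1607 and 1366 (log2 fold change -0.72, SE 0.11, adjusted p = 0.0092). The 34 oxidative phosphorylation genes gave 0 calls in limma and 0 at an unadjusted p under 0.05, beside 20.4% of all genes.

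The Asns promoter holds the element through which ATF4 acts on stress genes, and it is shown for the 100 bases before the start at chr6:7693210-7693309, minus strand (RefSeq, GRCm38.p6), with TGATGNAAN in capitals.
Asns: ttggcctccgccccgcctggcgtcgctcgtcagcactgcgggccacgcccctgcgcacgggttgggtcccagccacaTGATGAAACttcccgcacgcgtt
These letters were in 9 of 31 promoters of the stress response list (29.0%) in 3.95% of all promoters and in 2.44% of those of genes tested. They were in 3.92% of those of genes higher in 36N and 4.42% of those of genes lower.

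The lists of proliferation and repair had between 0 and 4.17% of their genes called, beside 4.56% of all genes, so these counts do not set the lists apart. In the G2/M list every fold change of the 36 members was below 0 and the median was -0.34. Of these 0 passed in limma and 17 had an unadjusted p under 0.05, beside 20.4% of all genes. The lowest p belonged to the mitotic kinesin Kif11, at 2183, 1653 and 1714 against 1255, 1119.9 and 1363 (log2 fold change -0.56, SE 0.14, adjusted p = 0.051). Of 36 genes of G1/S and replication 1 passed, the cell cycle inhibitor Cdkn2c, which rose from 874, 496 and 598 to 1497, 1571 and 1365 (log2 fold change 1.21, SE 0.19, adjusted p = 0.0086). Myc had 4264, 4634 and 3524 against 2999, 3252 and 2555 (adjusted p = 0.081). Of 34 genes of MYC and ribosome biogenesis 1 fell (Wdr12 -0.81, lost in 5 of the 6 fits with a library left out), and 31 fold changes were negative. The repair lists bear on temozolomide, an alkylating drug used in other libraries of the study. Mgmt, the enzyme that reverses its main lesion, had 86.1, 80.4 and 79.4 against 85.98, 73.8 and 44.7 (adjusted p = 0.55), with 36N library 6 the lowest. Ogg1, a glycosylase for oxidized guanine, fell from 386, 395 and 361 to 113, 117 and 153 (log2 fold change -1.58, SE 0.17, adjusted p = 0.0019), the only call of 25 genes of lesion and mismatch repair. Rev3l, a translesion polymerase, rose from 800.1, 933 and 729.9 to 1261, 1263 and 1294 (log2 fold change 0.64, SE 0.12, adjusted p = 0.019), a call lost without any one of the 36N libraries. Polm, an end-joining polymerase, fell by 0.83 (adjusted p = 0.034), a call lost in 5 of the 6 fits with a library left out. Of 23 p53 pathway genes 0 passed in limma and 5 had an unadjusted p under 0.05, beside 20.4% of all genes. Of 20 NF-kB genes 3 rose (15%, against 2.55% of all genes), Nfkbiz (0.85), Ikbkb (0.73) and Nfkb1 (0.70), and none of these 3 held without 36S library 2.

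Markers of other cell types gave no calls in the megakaryocyte (6 tested), erythroid (5), T and NK cell (13), B cell (21) and stroma (10) lists. With 4.56% of all genes called, 0 in lists this short is no result about them. Unadjusted p-values under 0.05 numbered 0, 0, 3, 3 and 2, beside 20.4% of all genes. The erythroid factor Klf1 was at 11.8 or less and the platelet gene Pf4 at 9.98 or less in every library. Other red cell genes were well above that in single libraries: the anion exchanger gene Slc4a1 stood at 170.4, 7.65 and 7.82 in 36S and 9.29, 20.3 and 728 in 36N, and Ermap, Ank1 and the globin gene Hbb-bt were at 196, 223 and 181 in 36N library 6. Igkc, an immunoglobulin gene, was at 2565, 5411 and 2696 in 36S and 2633, 1789 and 3348 in 36N. The sum of the stroma list was 2742 to 2964 in 36S and 3422 to 3724 in 36N, without overlap, and Cxcl12, a niche chemokine, had 134, 251 and 206 against 293, 294 and 363 (adjusted p = 0.12). The part of stroma cells in the results above was not tested.

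**Figure D4:**
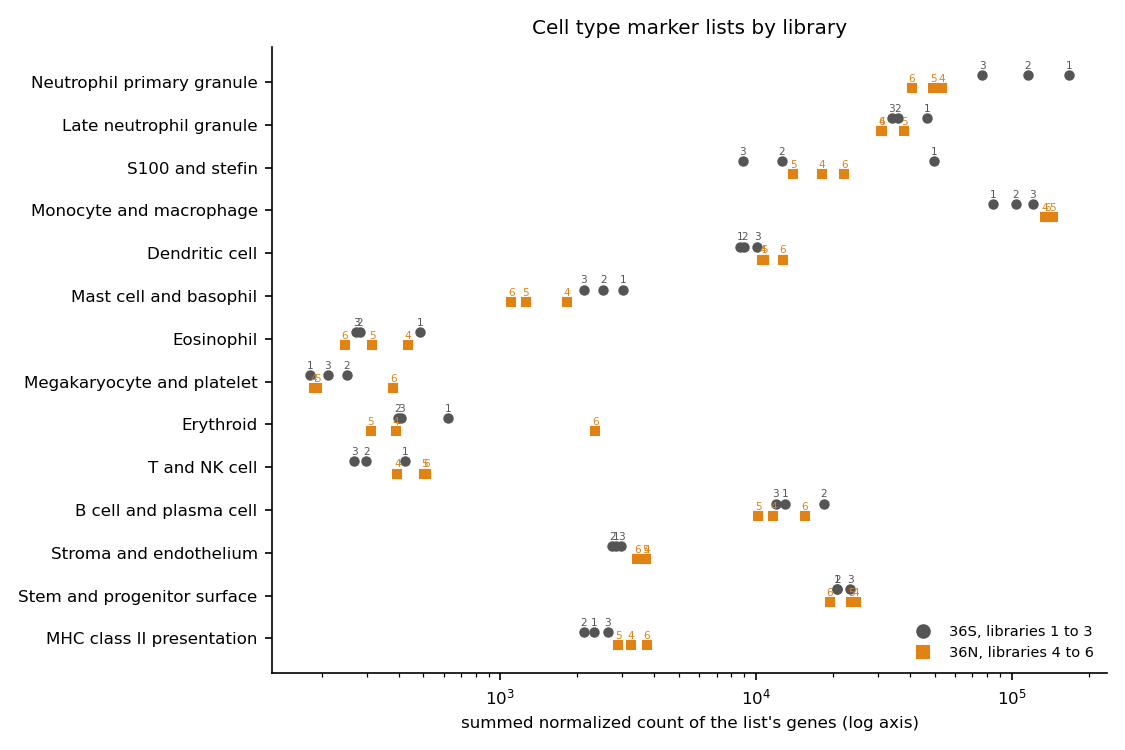
Summed normalized counts of cell type lists (rows, log axis) in each library, grey circles for 36S libraries 1 to 3 and orange squares for 36N libraries 4 to 6, with the library number at each point. The primary granule list lies lower in all 36N libraries and the monocyte list higher, while 36S library 1 is highest in the S100 list and 36N library 6 in the erythroid list.

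The same contrast was measured again in 3 36S and 3 36N libraries of leukemic cells given 50 µg/ml temozolomide (TMZ) for 20 h. They stood apart from untreated marrow in mast cell genes: Cpa3, the mast cell carboxypeptidase, was at 56149 to 128878 in 36S TMZ and 61084 to 129596 in 36N TMZ. In the table that holds both kinds of 36N library, Cpa3 was at 436, 28.5 and 59.2 without TMZ and at 42109.5, 86673 and 91172 with it. Deviations from the group mean over 14246 genes were correlated between 36S TMZ 1 and 36N TMZ 4 (r = 0.39), 2 and 5 (0.45) and 3 and 6 (0.35), a description across genes. The labels give these libraries no shared number. Of 14246 genes tested with TMZ, 0 passed in limma and 191 (1.34%) had an unadjusted p under 0.05. Of the 599 genes called in untreated marrow 544 were tested, 0 passed, 12 had an unadjusted p under 0.05 and 323 had the same sign. Vill stood at 746, 511 and 689 in 36S TMZ and 1004, 670.3 and 723 in 36N TMZ, and the groups overlapped. Irf8 had 1238, 292 and 427 against 1504, 332 and 682 (log2 fold change 0.38, SE 0.66, adjusted p = 0.9998), and Elane 10866, 3937 and 2669 against 5317, 2619 and 2297 (log2 fold change -0.61, SE 0.53, adjusted p = 0.9998). In both genes the groups overlapped. Within the 3 correlated pairs Vill and Irf8 were higher in the 36N library of each and Elane lower in each. In a fit with these pairs as a replicate block, added after the data had been seen and with the pairs taken from the values, 0 genes passed and 781 had an unadjusted p under 0.05, 68 of them among the 544. Adjusted p-values were then 0.93 for Vill, 0.90 for Irf8 and 0.89 for Elane.

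The difference between the contrast with and without TMZ was tested in 1 fit over both tables, an analysis added after the data had been seen. It passed for 41 of 12324 genes (0.333%), all of them among the 599, 12 higher and 29 lower in untreated 36N. In all 41 the log2 fold change lay nearer to 0 with TMZ, between -0.66 and 0.75. Since the untreated values enter both tests, the overlap with the 599 is no separate result. The count was 10 without 36S library 2 and between 14 and 34 without any other library, and it was 110 with the TMZ pairs above as a replicate block. The mast cell genes above differ between the 2 kinds of library, and their part in this was not tested.

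**Figure D5:**
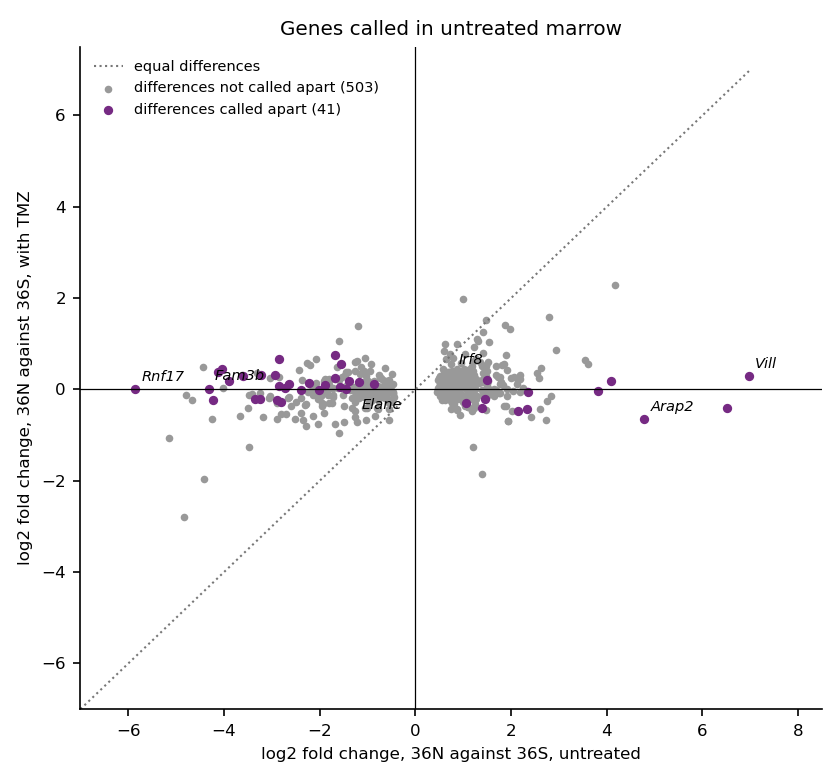
Log2 fold change of 36N against 36S in untreated marrow (horizontal axis) and with TMZ (vertical axis) for the 544 called genes tested in both. Purple points are the 41 genes whose difference passed as apart, the dotted line marks equal differences, and the 41 lie between -0.66 and 0.75 on the vertical axis.

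Another genotype of the study, KD, expressed the human gene at 10 to 20% and was compared with the same 36S libraries, where 1503 of 13109 genes passed (11.5%). Because the controls are shared, values are given side by side and no overlap is counted. Cybb was at 7010.3, 9037 and 8526 in KD (log2 fold change 1.76 against 36S, beside 1.48 for 36N), and Elane at 10331, 8861 and 11020.1 (-1.77 beside -1.25). Irf8 was at 6605, 6669 and 6645 (1.17 beside 0.77). Zfp575 was at 267, 649 and 609.9 (0.68 beside -4.22), Scml2 at 27.1, 64.1 and 109 (-0.18 beside -4.79) and Ccnb1ip1 at 17710.5, 12863 and 24878 (0.29 beside -1.17). The difference between 36N and KD was not tested here.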

How the data were processed

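RNA from total bone marrow cells of leukemic mice was sequenced after poly(A) selection, per the labels' protocols. The deposited values are a normalized signal, gene counts that the authors had scaled per library, and read depth is therefore unknown. The submitters' processing notes name Salmon, DESeq2 and build mm10, without roles. Columns headed WT were taken as the 36S libraries by their number. The untreated 36N and 36S table was used, with the KD table (its 36S values are identical) and the TMZ tables, each tested on its own. A fit over both the untreated and the TMZ table, and a block on TMZ libraries paired by their values, were added after seeing the data. Genes at 10 or more in at least 3 of 6 libraries were tested on log2(normalized count + 1) with limma 3.58.1 in R 4.3.3 (trend on expression, two-sided, Benjamini-Hochberg over all genes tested, threshold 0.05). Fold changes on this scale understate those of low genes. The script was tested on simulated data. Positions are those of GENCODE M21 (mm10) for 12967 genes and RefSeq for 155, and promoters those of RefSeq. Of 1225 listed symbols in 56 lists, 1149 were in the table, 32 matched through RefSeq synonyms and 44 did not match. Strand use in counting is not given in the sources used here, so overlapping genes and near-identical copies may share reads.

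Members and lists were chosen with earlier results of these data known. Named were a fixed set (Gfi1, not analysed here, Gfi1b, Irf8, Mgmt, Myc, Hoxa9, Meis1, Cebpa, Spi1, Csf1r and Kit), the 15 largest called changes in each direction with a mean of at least 50 in a group and no overlap, the 12 called genes with the highest mean and the 10 with the lowest p in each direction, and in each list up to 6 called members or, with none, the 2 with the lowest p. Unnamed gene models were passed over, and a few named genes are not reported here. Chosen after seeing the data were Adgre1, Ang, Ank1, Apoe, Ccr2, Cd14, Cd68, Cd74, Cdh5, Chil3, Ciita, Cmtm8, Col1a1, Cpa3, Cst3, Csta2, Cstdc5, Ctsb, Ctsg, Ctss, F10, F13a1, Gm21742, Gm49342, Hp, Igkc, Itgax, Kdm1a, Klf1, Lilr4b, Ltf, Ly6c2, Mid1-ps1, Ms4a2, Pf4, Plcd1, Pnp, Pnp2, Prtn3, Rnase6, S100a8, S100a9, S100a10, Siglech, Slc4a1, Tcf4, Tep1 and Xcr1, which were named for their values or their place. Other settings tried were pseudocounts, filters and scalings, fits without the trend, with a robust one or with library weights, a fit over all 9 untreated libraries, and each library left out in turn.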

Additional observations from a re-analysis of the deposited data

Results flagged for a closer look

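In the fit over both tables, 9 of the most changed genes had a 36N against 36S difference that passed as different with and without TMZ. The others of the most changed genes did not pass or were not tested in this fit. All were chosen for their large change in untreated marrow, and the same untreated values enter this fit. A smaller difference with TMZ is therefore in part set by the choice and is no separate result. Mast cell genes differ between libraries with and without TMZ, and their part in this was not tested. The log2 difference with TMZ minus that without was -6.68 for Vill, -5.44 for Arap2, 5.87 for Rnf17, 4.34 for Fam3b and 3.995 for Zfp575. It was 4.49 for Dip2c, 3.14 for Pard6b, 3.03 for Mid1 and 3.54 for Xlr4b. In TMZ libraries Fam3b stood at 66.95, 75.9 and 118 in 36S and 64.7, 91.2 and 105 in 36N. Dip2c stood at 265, 177 and 167 in 36S and 277, 269 and 267 in 36N with TMZ. These values were normalized apart from those of the untreated comparison, so their levels are not set beside each other. Where 36N libraries with and without TMZ were normalized together, the mean of Fam3b was 54.99 with TMZ and 3.32 without. That of Dip2c was 173 with TMZ and 13.5 without.

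Signals outside the untreated comparison were those of mast cell genes in the 36N libraries with TMZ. The mean of Cpa3 was 73318 there and that of Ms4a2, a chain of the IgE receptor, was 14002, against means of 174 and 12.7 in the untreated 36N libraries of the same table. Kit was at 13630.0 on average with TMZ against 387 without.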

How the results depend on the processing

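Read depth is unknown and each group has 3 libraries, so small differences may not be detectable. Among 178 named genes the direction held under every alternative except for Hoxa9 (0.02), which was at -0.023 after quantile normalization, -0.05 without 36S library 3, -0.16 without 36N library 4 and -0.19 without 36N library 5 (up to 0.39 without 36N library 6). The count of calls was 599, and 305 without the trend (146 higher, 159 lower), and 3304 with library weights (1667 higher, 1637 lower, 844 at least 2-fold apart). Under the other scalings, pseudocounts and filters the count was 520 to 624. With 1 library left out it ran from 218 (without 36S library 2) to 558, with 123 to 348 higher, 95 to 210 lower and 181 to 378 at least 2-fold apart. Of 135 named genes called, 73 did not pass without the trend, 9 with equal totals, 6 after quantile normalization, 6 with a robust trend and 9 in the fit over 9 libraries. Genes whose difference was apart with and without TMZ numbered 41, and 10 to 34 with 1 library left out. The cause of these changes was not tested. For the untreated libraries no paired analysis was possible because the labels give 36N and 36S no shared library number. The TMZ libraries were paired by the correlation of their values (1 with 4, 2 with 5, 3 with 6), and with this replicate block 0 genes passed with TMZ, as without it, and the genes whose difference was apart numbered 110.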
